A study of Mus musculus with 12 samples.

Results

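Collagens and the proteins assembled with them form the extracellular matrix, and 32 genes of that matrix were followed here: 14 collagen chains, elastic and adhesive glycoproteins, matricellular proteins, small leucine-rich proteoglycans, cross-linking enzymes, metalloproteinases and their inhibitors. They were taken from a list by gene symbol, and that list was chosen with earlier results of these data known. Every probe set annotated to a member alone was used, which gave 31 members on each of the array types: 31 probe sets among 35557 on the type that served liver and macrophages, and 61 among 22690 on the type that served aorta. Fbn1 (fibrillin 1) was not analysed here.

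Fibroblasts, hepatic stellate cells and vascular smooth muscle cells secrete fibrillar collagens as soluble precursors, which are trimmed, packed into fibrils and cross-linked outside the cell. Basement membranes under endothelium and epithelium hold a sheet of type IV collagen in place of fibrils. Metalloproteinases cut these proteins, tissue inhibitors of metalloproteinases block the cutting, and in liver and atherosclerotic artery the balance between them is known to shape scarring and the fibrous cap of plaques.

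The mice lacked Apoe, so that they clear lipoproteins poorly, and either carried Prkch, which encodes the eta form of protein kinase C (Apoe-/-, called control here), or lacked it too (Prkch-/-Apoe-/-, called knockout). All were of the C57BL/6J strain after backcrossing. Male mice, 20 weeks old and given a high fat diet for 12 weeks, supplied the liver (re-fed state, 2 arrays per genotype) and the aorta (fed state). In aorta there was 1 array per genotype, hybridised with the mixed RNA of 4 mice. The peritoneal macrophages, drawn out with thioglycolate, were from female mice kept on a regular diet and were not stimulated. Their 3 arrays per genotype differed in the age of the mice, which was 18 weeks at replicate 1, 17 at replicate 2 and 27 at replicate 3 in both genotypes. The labels give no tissue restriction for either deletion, and the controls in all 3 tissues carried the Apoe deletion.

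Macrophage and liver values are deposited on a log2 scale, with array medians between 6.57 and 6.77 in macrophages and between 5.88 and 5.93 in liver. Aorta values are linear signal intensities. Prkch lay at 6.57 and 6.87 in control liver against 5.93 and 5.65 in knockout liver, and at 9.94, 9.86 and 9.31 in control against 9.36, 8.79 and 8.87 in knockout macrophages, so its probe set was lowered but not emptied; where that probe set lies relative to the deleted part is not given in the sources used here. In aorta Prkch was dim in both pools, at 17.2 and 9.94. Markers of the labelled tissue were bright in liver and macrophages: the mean over 10 hepatocyte genes lay between 13.18 and 13.33 on the liver arrays, and the mean over 11 macrophage genes between 11.89 and 12.52 on the macrophage arrays. In the control aorta pool, signals summed to 4159 over 9 smooth muscle markers and to 1748 over 8 endothelial markers. The sums were larger over 7 adipocyte markers (14073) and 10 skeletal muscle markers (12808). Macrophage knockout replicate 2 stood apart from the other 5 arrays, with B cell markers at a mean of 9.53 against 7.03 to 8.29, so the main macrophage values are also given without it. There were 2 to 3 arrays per genotype in liver and macrophages, their number limits the precision, and the labels name the arrays biological replicates without saying which animals they came from.

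In liver, most matrix genes lay lower in the knockout, with the fibrillar collagen Col3a1, the collagen-binding protein Sparc and the inhibitor Timp1 among the largest differences, but none passed the test over all genes. Of 30 members bright enough to test, 27 had a lower mean in the knockout and 3 a higher one, with a median difference of -0.17 log2 units against -0.02 over all 15942 genes tested, of which 57.2% were lower. Without knockout replicate 1 the count was 18 lower of 30. By limma with Benjamini-Hochberg adjustment over all genes, 0 of the 30 members were called at an adjusted p under 0.05, where 0.00627% of all genes were called; the smallest adjusted p of a member was 0.932. At an unadjusted p under 0.05, 6 members were lower and 0 higher, a share of 20% of the members against 2.75% of all genes lower at that threshold. For 13 members both knockout values lay below both control values (43.3% of the members, 18.0% of all genes), and for 0 both lay above.

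**Figure D1:**
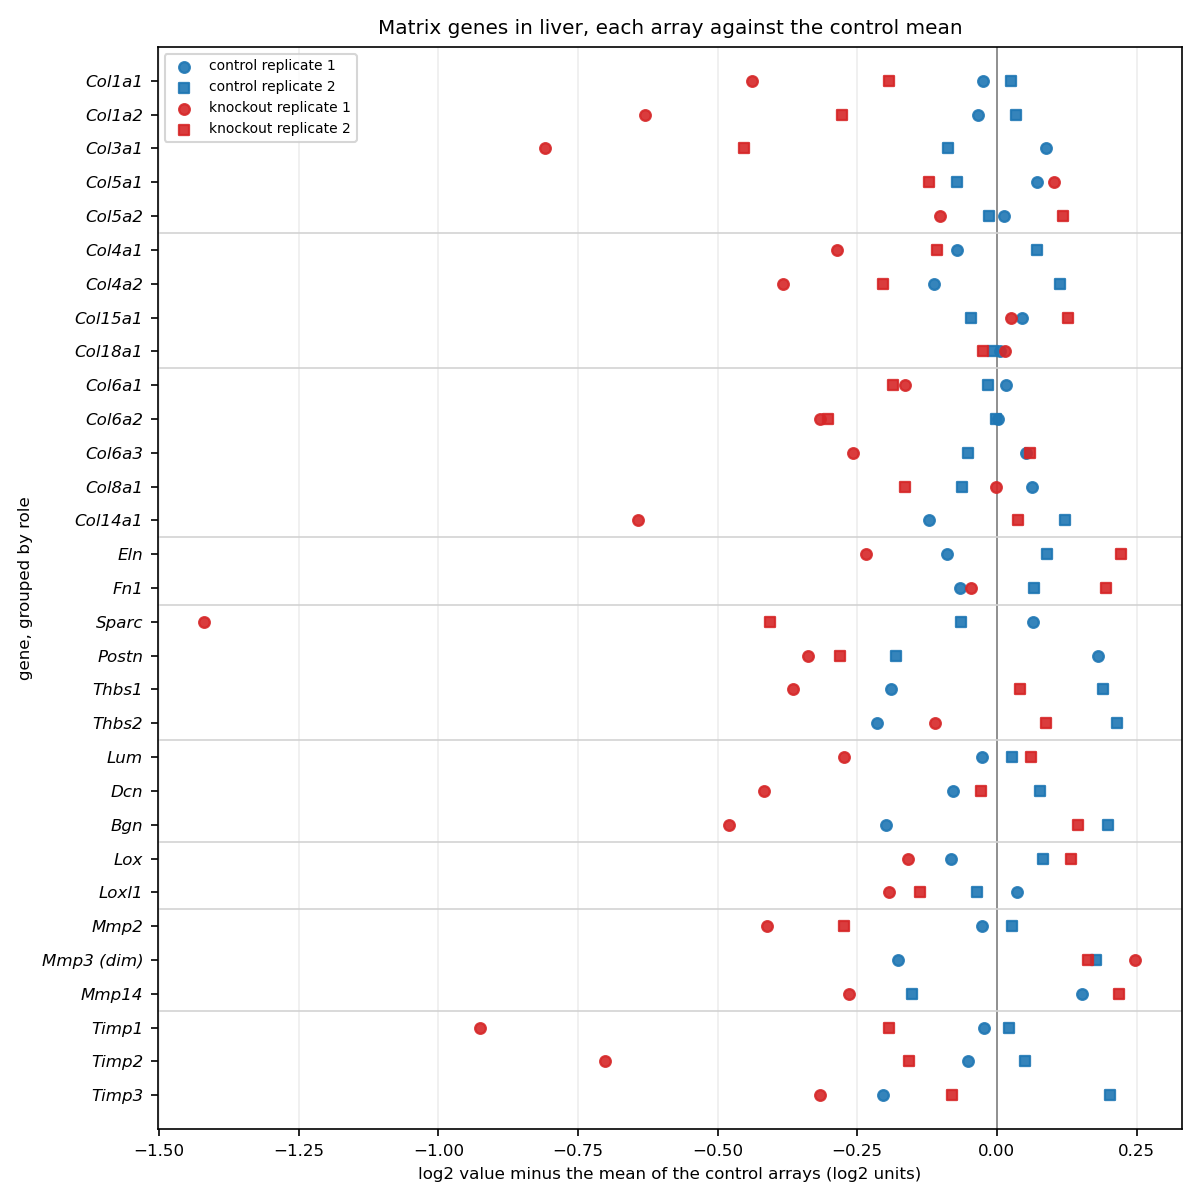
Matrix genes in liver: the horizontal axis gives each array's log2 value minus the mean of the 2 control arrays, with 1 row per gene grouped by role, blue for control and red for knockout, circles for replicate 1 and squares for replicate 2. Knockout replicate 1 lies farthest to the left for most genes, at -1.42 for Sparc, and Mmp3 is marked dim because it was below the filter.

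The fibrillar collagens that make the bulk of interstitial fibrils were lower on both knockout arrays for Col3a1 and type I collagen. Col3a1, the type III collagen of reticular fibres (probe set 10346015), was at 8.03 and 7.85 in control and at 7.13 and 7.49 in knockout liver. The mean of the knockout arrays lay at 64.6% of the control level, a difference of -0.63 ± 0.16 log2 units (SE, limma, adjusted p = 0.932). Col1a2, a chain of type I collagen, was at 8.15 and 8.21 against 7.55 and 7.90, a difference of -0.45 ± 0.15. Col1a1, the other chain of type I collagen, was at 8.03 and 8.08 against 7.62 and 7.86, a difference of -0.32 ± 0.14. None of the 3 had overlapping values between genotypes. Without knockout replicate 1 Col1a2 differed by -0.28 and Col1a1 by -0.19. Col5a1 and Col5a2, chains of the type V collagen found inside type I fibrils, had overlapping values and differences of -0.01 ± 0.14 and 0.01 ± 0.14.

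The stretch around the start of Col3a1 is shown because it was the member with the smallest p in liver. It is the RefSeq promoter window on GRCm38.p6, chr1:45311288-45311587 on the plus strand, from 250 bases before to 50 bases after the annotated start, 5′ to 3′. Capitals mark a TATA motif, TATAAA, 117 bases upstream of the start.
Col3a1: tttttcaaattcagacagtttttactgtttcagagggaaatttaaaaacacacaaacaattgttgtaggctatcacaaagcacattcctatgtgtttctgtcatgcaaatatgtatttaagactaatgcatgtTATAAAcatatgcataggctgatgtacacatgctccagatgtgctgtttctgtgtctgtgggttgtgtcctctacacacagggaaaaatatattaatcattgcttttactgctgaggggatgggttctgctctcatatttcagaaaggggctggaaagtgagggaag
Among 20 members with a promoter window in the RefSeq table, TATAAA was found on either strand in 4 (Col3a1, Postn, Thbs2 and Mmp3), against 13.6% of 32851 windows in all. The motif CCAAT was found in 9 members against 37.4% of all windows, and GGGCGG in 12 members against 35.7%. Such a match is a description of letters only.

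Basement membrane collagens differed less. Col4a1, at 7.46 and 7.61 in control and 7.25 and 7.43 in knockout, had a difference of -0.20 ± 0.14. Col4a2, whose chain joins that of Col4a1 in the main type IV network, was at 7.30 and 7.52 against 7.03 and 7.21, a difference of -0.29 ± 0.15. For both chains the knockout values lay below the control values without overlap, and neither passed the test (adjusted p = 1 for each by limma). Col4a1 differed by -0.11 without knockout replicate 1, and Col4a2 by -0.18 without control replicate 2. Col15a1 and Col18a1, which sit where basement membrane meets the stroma, overlapped between genotypes, with differences of 0.08 ± 0.13 and -0.01 ± 0.13.

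Col4a1 and Col4a2 are transcribed in opposite directions from 1 shared stretch, shown here because these partners lay on the same side of the control in liver and in aorta. Each annotated start lies 21 bases downstream of the other. Their RefSeq windows on GRCm38.p6 overlap by 78 bases: chr8:11312777-11313076 on the minus strand for Col4a1 and chr8:11312555-11312854 on the plus strand for Col4a2. Each is printed 5′ to 3′ along its own gene, with capitals on CCAAT and GGGCGG motifs or, where the match is on the other strand, their reverse complements.
Col4a1: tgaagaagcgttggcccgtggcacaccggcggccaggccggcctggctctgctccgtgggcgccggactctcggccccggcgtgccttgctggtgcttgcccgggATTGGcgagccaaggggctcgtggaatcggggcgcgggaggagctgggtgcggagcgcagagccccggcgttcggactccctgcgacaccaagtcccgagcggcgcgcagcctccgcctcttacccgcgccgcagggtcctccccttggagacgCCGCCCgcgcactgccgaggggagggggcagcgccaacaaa
Col4a2: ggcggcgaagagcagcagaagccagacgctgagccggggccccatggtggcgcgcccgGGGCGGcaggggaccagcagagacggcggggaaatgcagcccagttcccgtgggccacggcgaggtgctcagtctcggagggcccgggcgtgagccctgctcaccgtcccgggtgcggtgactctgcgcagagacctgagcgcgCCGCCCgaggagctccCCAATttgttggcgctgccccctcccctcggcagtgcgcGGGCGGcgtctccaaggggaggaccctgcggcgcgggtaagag
Both windows hold CCAAT and GGGCGG matches and neither holds TATAAA.

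The other collagens had a median difference of -0.18 over 5 genes, 2 of them without overlap. Col6a2, a chain of the beaded microfibrils of type VI collagen, had the tightest values, 7.07 and 7.06 in control against 6.75 and 6.76, a difference of -0.31 ± 0.13. Col6a1 was at 7.17 and 7.14 against 6.99 and 6.97, also without overlap, a difference of -0.18 ± 0.13. Col6a3, Col8a1 and Col14a1 overlapped between genotypes. Col14a1, a fibril-associated collagen, was at 9.39 and 9.64 in control, 8.87 on knockout replicate 1 and 9.55 on knockout replicate 2, so its difference of -0.30 ± 0.22 rested on replicate 1 and was 0.04 without it.

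Sparc, a matricellular protein that binds collagen, had the largest difference of all members in liver. It was at 9.24 and 9.11 in control and at 7.75 and 8.77 in knockout (probe set 10386058), a mean of 53.1% of control and a difference of -0.91 ± 0.28 log2 units (limma, adjusted p = 1). Both knockout values were below both controls, but they differed from each other by more than knockout replicate 2 differed from the controls. Without knockout replicate 2 Sparc was the 1 member to be called, at -1.42 (limma, adjusted p = 0.0302), where 39 genes were called over all and the knockout arm was 1 array assumed to vary like the controls. Without knockout replicate 1 the difference was -0.41. Postn, periostin, was lower without overlap, at 7.02 and 6.66 against 6.50 and 6.56, a difference of -0.31 that was -0.13 without control replicate 1. Thbs1 and Thbs2, the thrombospondins, overlapped between genotypes, with differences of -0.16 ± 0.19 and -0.01 ± 0.17.

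The small leucine-rich proteoglycans, which coat collagen fibrils, were lower on knockout replicate 1 and near control on replicate 2. Decorin (Dcn) was at 11.38 and 11.54 in control against 11.04 and 11.43, biglycan (Bgn) at 9.30 and 9.69 against 9.02 and 9.64, and lumican (Lum) at 6.54 and 6.59 against 6.29 and 6.63. Their differences lay between -0.22 and -0.11, all with overlap, and that of Dcn was -0.03 without knockout replicate 1. Fn1, fibronectin, which hepatocytes also secrete into plasma, was at 12.30 and 12.43 against 12.32 and 12.56, a difference of 0.07 ± 0.14. Eln, elastin, was at 6.23 and 6.41 against 6.09 and 6.54.

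The 3 inhibitors of metalloproteinases had a median difference of -0.43 log2 units, with medians of -0.70 on knockout replicate 1 and -0.16 on knockout replicate 2 relative to the control mean. Timp1, an inhibitor known to rise in injured liver, was at 5.89 and 5.93 in control against 4.98 and 5.72 in knockout, a difference of -0.56 ± 0.22. Timp2 was at 7.56 and 7.67 against 6.91 and 7.46, a difference of -0.43 ± 0.19. Both were without overlap and lowest on knockout replicate 1; without that array Timp1 differed by -0.19 and Timp2 by -0.16. Timp3, at 7.52 and 7.92 against 7.40 and 7.64, overlapped, and its direction turned without control replicate 2. Mmp2, gelatinase A, was at 7.18 and 7.24 against 6.80 and 6.94, a difference of -0.34 ± 0.13 without overlap. Mmp14, the membrane enzyme that activates the product of Mmp2, overlapped at 8.98 and 8.68 against 8.56 and 9.05. Of the cross-linking enzymes, Loxl1 was lower without overlap, at 6.06 and 5.99 against 5.83 and 5.89, and Lox overlapped. Mmp3, stromelysin 1, lay between 4.31 and 4.74, below the filter of 4.87, and was not tested.

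The knockout arrays did not differ from control to the same extent. The median of the members' deviations from the control mean was -0.30 on knockout replicate 1 and -0.09 on knockout replicate 2, with controls at -0.03 and 0.03. Leaving out knockout replicate 1 moved the median difference from -0.17 to -0.09 and the count of members at an unadjusted p under 0.05 from 6 to 2, where 4.61% of all genes passed. Leaving out knockout replicate 2 moved them to -0.32 and 10, where 9.90% of all genes passed. Without control replicate 1 or control replicate 2 that count was 3, against 3.04% and 3.01% of all genes. Each of these fits leaves 1 genotype with 1 array, whose spread is taken from the other genotype. In these bulk samples, fewer cells of a type and less RNA per cell cannot be told apart.

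Matrix genes outside the members had a median difference near 0. Over 6 further lists (other collagens, other basement membrane proteins, elastic fibre and microfibril proteins, other proteoglycans and matricellular proteins, collagen processing enzymes, and other matrix proteases and inhibitors), 133 genes were tested in liver, 80 of them lower, with a median difference of -0.03 and 0 called. At an unadjusted p under 0.05, 7 of these were lower and 2 higher, a share of 5.26% lower against 2.75% of all genes. Another count, of genes lower without overlap, gave 27 (20.3%, against 18.0% of all genes). The 30 other collagens had a median of 0.00, with 14 lower. The largest difference in these lists was that of Mmp12, the macrophage elastase, at 9.02 and 8.91 in control against 6.44 and 7.87 in knockout (-1.81 ± 0.38, limma, adjusted p = 0.658). Plau, urokinase, was at 6.92 and 6.66 against 6.27 and 6.06 (-0.63 ± 0.15, limma, adjusted p = 0.812). Tgfbi, an adhesive matrix protein, and Crtap and P4ha1, which modify prolines of collagen chains, differed by -0.37, -0.37 and -0.31, each lower without overlap.

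Receptors and signals of the matrix gave 0 calls too. Of 24 matrix receptors 17 were lower (median -0.10), among them Cd44, the hyaluronan receptor, at 6.86 and 7.32 against 6.53 and 6.76; Sdc2, a syndecan, was higher at 10.09 and 10.02 against 10.32 and 10.41. Of 14 genes of the TGF-beta axis, which drives collagen transcription, 11 were lower (median -0.10), Tgfb1 at 7.67 and 7.56 against 7.34 and 7.30. Inhba, the activin A subunit, was higher at 7.57 and 7.00 against 8.05 and 8.02 (0.75 ± 0.19, limma, adjusted p = 0.932).

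Markers of some other cell types were lower in knockout liver too, and their part in the result was not tested. Not all lists were: mesothelium markers were higher for 6 of 9 (median 0.06) and B cell markers for 2 of 3 (median 0.14). All 11 macrophage markers were lower in the knockout, with a median difference of -0.32, 8 of them without overlap, and their mean level was 8.62 and 9.05 on the control arrays against 8.39 and 8.55. Cd68 was at 9.58 and 9.94 against 8.71 and 9.12. All 6 adipocyte markers tested were lower, with a median of -0.46 and mean levels of 7.20 and 7.10 against 6.55 and 6.86; these included Cidec and Lpl, which lipid-laden liver cells can also express. All 10 endothelial markers were lower by a median of -0.10. Markers of hepatic stellate cells, the main collagen makers of liver, were lower for 6 of 10, with a median of -0.01 and mean levels of 7.16 and 7.26 against 7.03 and 7.29; fibroblast markers were lower for 6 of 9, with a median of -0.05. On this log2 scale no marker can stand at 0.

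In peritoneal macrophages, some matrix genes spread widely from array to array, and no difference between genotypes passed the test. Of 31 members, 28 were bright enough to test, 21 of them (75%) with a lower mean in the knockout. The median difference was -0.12 log2 units against -0.04 over all 15039 genes tested, of which 63.5% were lower. That median was -0.03 without knockout replicate 2, where 18 of 28 were lower, -0.03 without control replicate 1, where 16 were lower, and -0.26 without knockout replicate 1. By limma, 0 members were called at an adjusted p under 0.05 (0% of all genes), and 0 passed an unadjusted p under 0.05 (0.698% of all genes). Without knockout replicate 1, 8 members passed an unadjusted p under 0.05 (1.96% of all genes) and 0 were called. The median over all genes was then -0.09. Knockout replicate 1 was the only knockout array of batch 1 (batches are described below). Without it both knockout arrays were of batch 2, while control replicates 1 and 2 were of batch 1, so that fit largely sets batch against batch. For 0 members did all 3 knockout values lie below all 3 control values (1.60% of all genes). Postn, Lum and Mmp3 were below the filter of 5.74.

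**Figure D2:**
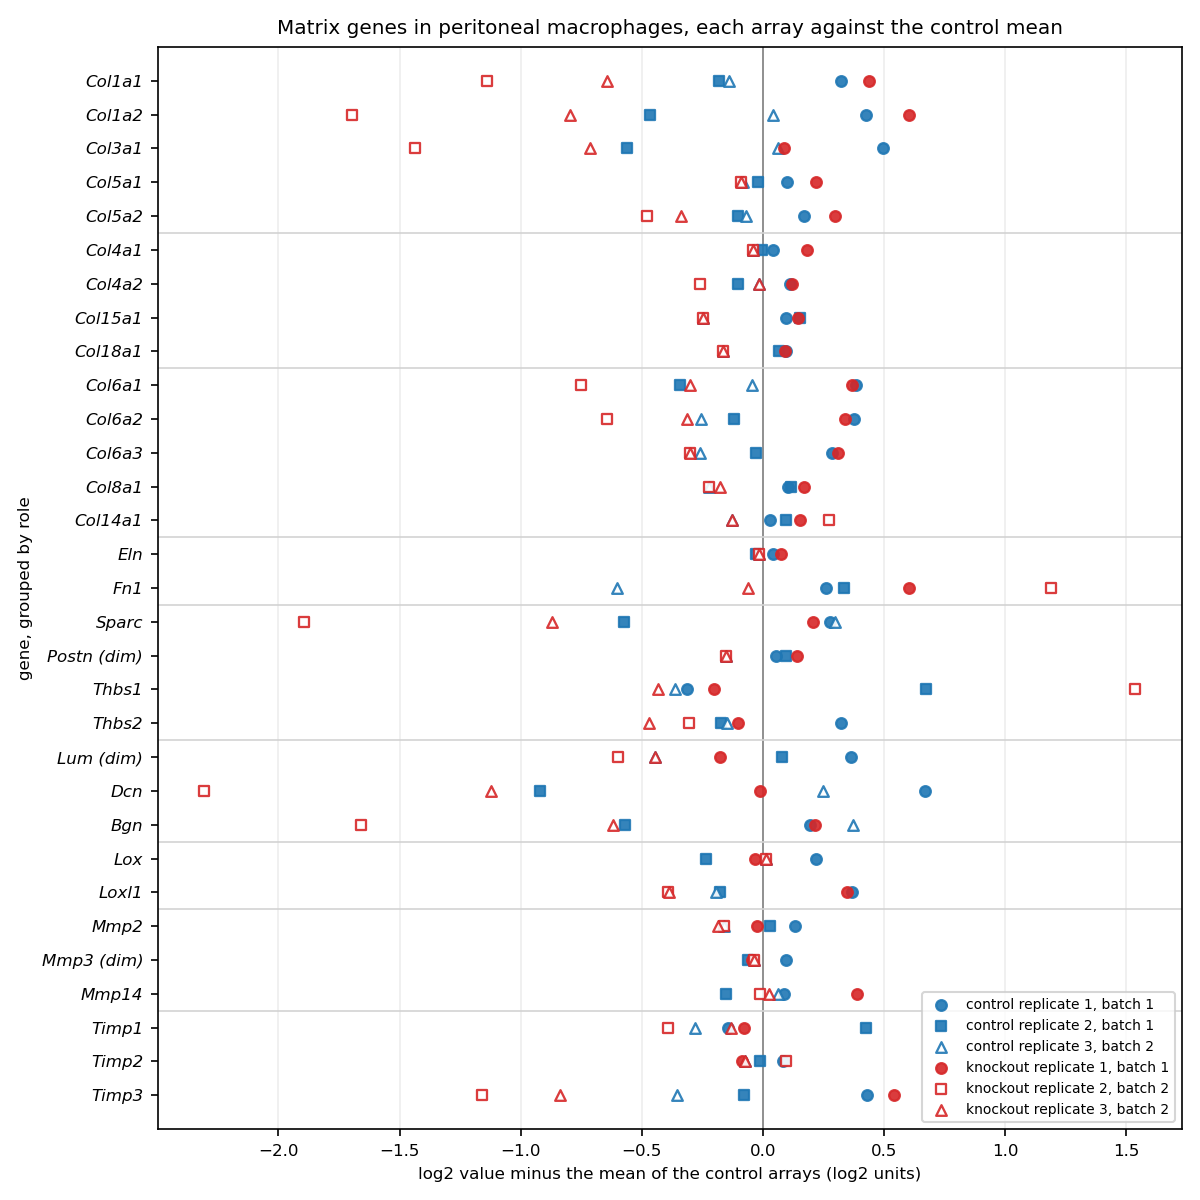
Matrix genes in elicited peritoneal macrophages: the horizontal axis gives each array's log2 value minus the mean of the 3 control arrays, with 1 row per gene grouped by role, blue for control and red for knockout, filled markers for batch 1 and open markers for batch 2. Knockout replicate 2 (open squares) lies lowest for Dcn, Sparc, Col1a2, Bgn and Col3a1 and highest for Fn1 and Thbs1.

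Values identical to the last digit divided these arrays into sets, for which the labels name no batch. Any pair among control replicates 1 and 2 and knockout replicate 1 (called batch 1) had 53 to 69 values in common to the last digit, whereas any pair among control replicate 3, knockout replicate 2 and knockout replicate 3 (called batch 2) had 16075 to 18000. Pairs across the batches had 0 to 3. Batch 2 thus held knockout replicates 2 and 3 but control replicate 3 alone. Genotype and batch were not balanced and cannot be fully told apart in the pooled comparison. Within batch 1 the members' median difference was 0.14, within batch 2 it was -0.05, and with the batch as a block it was -0.01, against 0.03, 0.00 and 0.01 over all genes. The lower median of the pooled comparison therefore did not hold within batch 1. With the batch as a block 16 of the 28 members tested were lower, against 21 without it. In batch 2, 7 members had the same value on all 3 arrays (Col4a1, Col15a1, Col18a1, Eln, Postn, Lox and Mmp3), 8 had a value shared by a pair of arrays, and 16 had distinct values. The shares were 22.6% tied on all 3 arrays and 51.6% distinct, against 41.2% and 33.9% of all genes.

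Dcn, Col1a2, Sparc and Bgn had the widest ranges across the arrays. Dcn, a product of fibroblasts, was at 9.82, 8.23 and 9.40 in control replicates 1, 2 and 3 and at 9.13, 6.84 and 8.02 in knockout replicates 1, 2 and 3. Its highest and lowest arrays were thus 2.98 log2 units apart. The difference between genotypes was -1.15 ± 0.64 (limma, adjusted p = 1), with 0.11 within batch 1 and -1.96 within batch 2, and -0.57 without knockout replicate 2. Sparc was at 9.16, 8.31 and 9.18 in control against 9.09, 6.99 and 8.01, a difference of -0.85 ± 0.53, and -0.33 without knockout replicate 2. Col1a2 was at 9.74, 8.85 and 9.36 against 9.92, 7.62 and 8.52, a difference of -0.63 that was -0.10 without knockout replicate 2. Col3a1 was at 8.89, 7.83 and 8.46 against 8.48, 6.96 and 7.68, a difference of -0.69 that was -0.31 without that array. Bgn differed by -0.69, and by -0.20 without it. For Dcn, Sparc, Col1a2 and Col3a1, knockout replicate 2 was lowest, knockout replicate 3 came next, below control replicate 2, and knockout replicate 1 lay within or above the range of the controls.

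Over the members as a whole, 11 of 31 spanned more than 1 log2 unit across the 6 arrays (Col1a1, Col1a2, Col3a1, Col6a1, Col6a2, Fn1, Sparc, Thbs1, Dcn, Bgn and Timp3), and 13 spanned less than 0.5. Knockout replicate 2 was the lowest array for 14 members, and control replicate 1 and knockout replicate 1 were the highest for 11 and 12. Neither these counts nor the ranges were taken over all genes. The arrays' median deviations from the control mean were 0.18, -0.09 and -0.10 for control replicates 1, 2 and 3 and 0.18, -0.28 and -0.27 for knockout replicates 1, 2 and 3. Over all genes tested they were 0.04, 0.03 and -0.08 in control and 0.07, -0.09 and -0.08 in knockout. The batch 2 arrays thus lay lower over all genes too, and they included more knockout than control arrays. Col8a1 was higher in the knockout within batch 1 (0.06) and within batch 2 (0.02), yet its pooled difference was -0.08. Among the 16 members with distinct values in batch 2, 12 fell in the order control replicate 3, knockout replicate 3, knockout replicate 2 from high to low, and all 12 were also lower on control replicate 2 than on control replicate 1. The difference between these control arrays was as large as many between genotypes: Dcn was 1.59 lower and Col3a1 1.06 lower on control replicate 2 than on control replicate 1.

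Adhesive proteins that macrophages themselves make were highest on the array where Dcn, Sparc, Col1a2 and Bgn were lowest. Fn1 was at 13.24, 13.32 and 12.38 in control against 13.58, 14.17 and 12.92, a difference of 0.58 ± 0.37 (limma, adjusted p = 1) that was 0.30 within batch 1, 1.17 within batch 2 and 0.27 without knockout replicate 2. Thbs1, thrombospondin 1, was at 12.08, 13.06 and 12.03 against 12.19, 13.93 and 11.96, high on replicate 2 of both genotypes, with a difference of 0.30 ± 0.55 that turned to -0.32 without knockout replicate 2. Timp2 lay between 11.89 and 12.07 on all 6 arrays, and Mmp14 lay between 10.61 and 11.15. Timp1 was at 7.70, 8.27 and 7.56 against 7.76, 7.45 and 7.71, and its direction turned without control replicate 2.

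Markers of other peritoneal cells differed between arrays as well, and their part in the spread was not tested. Pdgfra, a receptor of fibroblasts, was at 8.23, 7.32 and 8.58 in control against 8.25, 6.35 and 7.42, lowest on knockout replicate 2 like Dcn. The mean over 8 fibroblast markers was 7.82, 7.66 and 7.50 against 7.84, 7.14 and 7.38. Of 9 mesothelium markers 8 were lower in the knockout, with means of 7.05, 6.83 and 6.80 against 6.90, 6.39 and 6.50. Krt19, a keratin of mesothelium, was at 7.99, 7.42 and 7.75 against 7.56, 6.40 and 7.03. The mean over 4 B cell markers was 8.29, 7.15 and 7.49 against 7.03, 9.53 and 7.33, and over 11 macrophage markers 12.08, 12.29 and 11.94 against 11.96, 12.52 and 11.89. In the 6 further matrix lists 92 of 121 genes were lower (76.0%, against 63.5% of all genes), with 0 called. Their median was -0.06, against -0.04 over all genes. With the batch as a block it was 0.03, against 0.01 over all genes.

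In aorta, matrix genes were higher in the knockout pool more often than lower, by amounts under 2-fold for all but Mmp3. Values are signal intensities from 1 pool per genotype, so they have no replicate check and no p. A pseudocount of 16 was added to each signal before log2 was taken, so differences of dim genes come out too small. Of 30 members kept by the filter on dim genes (a signal of at least 32.6 in the brighter pool), 21 were higher and 9 lower, with a median difference of 0.16, against -0.01 over all 7098 genes kept, of which 48.5% were higher. A gene that reached the filter in 1 pool only was kept, and its direction was then fixed, as for Thbs2 among the 21 higher. A difference of 2-fold or more was reached by 1 member upward (0.873% of all genes) and by 0 downward (0.394% of all genes).

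**Figure D3:**
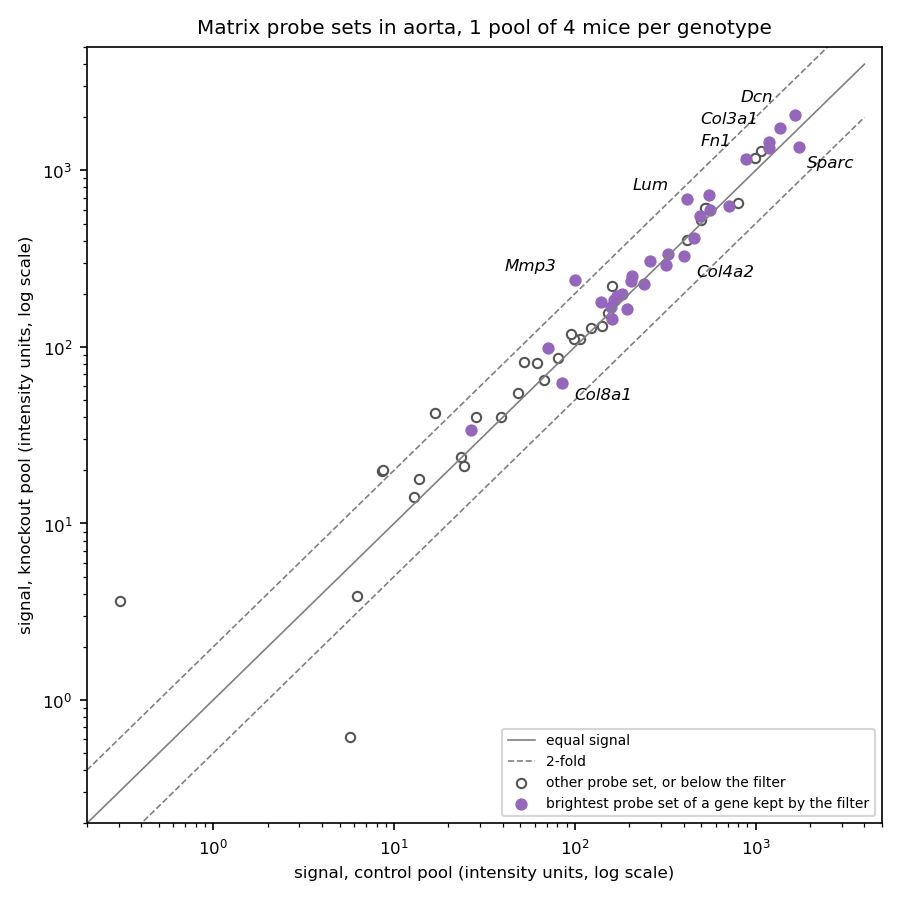
Matrix probe sets in aorta: control signal on the horizontal axis and knockout signal on the vertical axis, both log-scaled in intensity units, for the 61 probe sets of the members, with filled points for the brightest probe set of each of the 30 genes kept by the filter. Of the filled points, Mmp3 alone lies past the 2-fold line, and Sparc and Col8a1 are among those below the line of equal signal.

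Mmp3, a stromelysin that cuts proteoglycans, fibronectin and basement membrane proteins, had a signal of 101 in control and 240 in knockout, 2.39-fold higher, and was dim in liver and macrophages. Its difference of 1.14 dropped below 2-fold when a pseudocount of 64 was used, at 0.89. Mmp14 was at 140 against 179. Mmp2 was at 160 against 143 by its brightest probe set and at 124 against 129 by another, so its probe sets differed in direction.

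The window around the start of Mmp3 is shown because it was the member past 2-fold. It is chr9:7445572-7445871 on the plus strand of GRCm38.p6, from RefSeq, 5′ to 3′. Capitals mark TATAAA, 7 bases upstream of the annotated start, and the reverse complement of the AP-1 motif TGACTCA, 46 bases upstream.
Mmp3: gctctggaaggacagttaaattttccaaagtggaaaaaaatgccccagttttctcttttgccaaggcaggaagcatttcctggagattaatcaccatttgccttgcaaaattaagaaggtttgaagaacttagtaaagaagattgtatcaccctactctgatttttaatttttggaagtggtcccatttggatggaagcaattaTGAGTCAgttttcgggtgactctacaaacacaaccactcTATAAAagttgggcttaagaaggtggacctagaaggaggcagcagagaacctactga
TGACTCA was found on either strand in 2 of the 20 members with a window (Mmp3 and Col6a1), against 5.20% of all windows.

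The small leucine-rich proteoglycans were all higher in the knockout pool. Lum was at 417 against 692, 1.66-fold higher. Dcn was at 1645 against 2064, and Bgn at 1186 against 1340, with its other probe sets higher too. The fibrillar collagens split by type. Col3a1 was at 1359 against 1741 and Col1a2 at 1191 against 1441, although a second probe set of Col1a2 was at 419 against 402. Col1a1 was at 158 against 169. Col5a1 was at 193 against 163 and Col5a2 at 456 against 414, both lower, with a dimmer probe set of Col5a1 at 81.1 against 86.1.

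Adhesive and matricellular genes were mostly higher, with Sparc as the exception. Fn1 was at 887 against 1161, Postn at 549 against 723, Thbs1 at 70.7 against 98.3 and Thbs2 at 26.6 against 33.9. Sparc was at 1736 against 1355, and its second probe set at 794 against 654, both lower in the knockout pool. Elastin was at 320 against 291, while its dimmer probe set, below the filter, was at 8.58 against 19.7.

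The basement membrane chains Col4a1 and Col4a2 were lower, at 708 against 626 and 399 against 327. Col8a1, a network collagen made by endothelial and smooth muscle cells of the vessel wall, was at 84.8 against 62.4, a difference of -0.36 and the lowest of the members. Col18a1 was at 183 against 200, and Col15a1 was below the filter. The type VI chains were higher, Col6a1 at 206 against 253, Col6a2 at 327 against 334 and Col6a3 at 261 against 307, and Col14a1 was at 205 against 236. The inhibitors Timp1, Timp2 and Timp3 were at 171 against 195, 558 against 599 and 494 against 548. Lox was at 165 against 185 and Loxl1 at 240 against 227.

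Of the 71 other matrix genes kept in aorta, 48 were higher, with a median difference of 0.10. Among 18 other proteoglycans and matricellular genes 13 were higher, with a median of 0.41. Comp, a cartilage and tendon matrix protein, was at 37.5 against 85.0 (2.26-fold before the pseudocount), Aspn, asporin, at 89.1 against 171, Ecm1 at 158 against 292 and Ccn5 at 63.1 against 116. Pcolce, which speeds the trimming of collagen precursors, was at 311 against 549. Mmp13, the mouse interstitial collagenase, was at 19.3 against 59.8 and was the 1 gene of these lists past 2-fold with the pseudocount. It reached the filter in the knockout pool only, so its direction was fixed by being kept. Of 10 kept genes of the TGF-beta axis 4 were higher, and Skil, a repressor of that pathway, was at 402 against 247.

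Markers of other cells and tissues differed between the pools too, and their part in the matrix values was not tested. Fibroblast markers were higher for 9 of 11, with a median difference of 0.16 and summed signals of 3899 in control against 4968. Gsn alone was at 2053 against 2943 and made up most of the gap between these sums. Smooth muscle markers were higher for 7 of 9, with sums of 4159 and 4909. All 10 skeletal muscle markers were lower, with sums of 12808 and 7845, and 7 of 8 endothelial markers were lower, with sums of 1748 and 1424. Adipocyte markers were higher for 6 of 7, with sums of 14073 and 15945. The B cell gene Ms4a1 was at 49.9 against 453. The other B cell markers kept, Cd79b (29.8 against 162) and Cr2 (13.4 against 40.9), reached the filter in the knockout pool only.

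Liver and aorta values can be set side by side, with no test. Of 29 members measured in both liver and aorta, 19 were lower in knockout liver and higher in the knockout aorta pool, among them Col1a1, Col1a2, Col3a1, Lum, Dcn and the 3 inhibitors. Another 8 were lower in both: Col4a1, Col4a2, Col5a1, Col8a1, Eln, Sparc, Loxl1 and Mmp2. Over all 6856 genes measured in both, 29.6% were lower in liver and higher in aorta, 64.1% lower in liver and 48.2% higher in aorta. Fn1 was higher in both, and Col5a2 was higher in liver and lower in aorta. Without replicates in aorta this difference between tissues was not tested. In liver 16 of the 30 members had a difference larger than its standard error, which is no test, and the share of all genes was not counted.

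**Figure D4:**
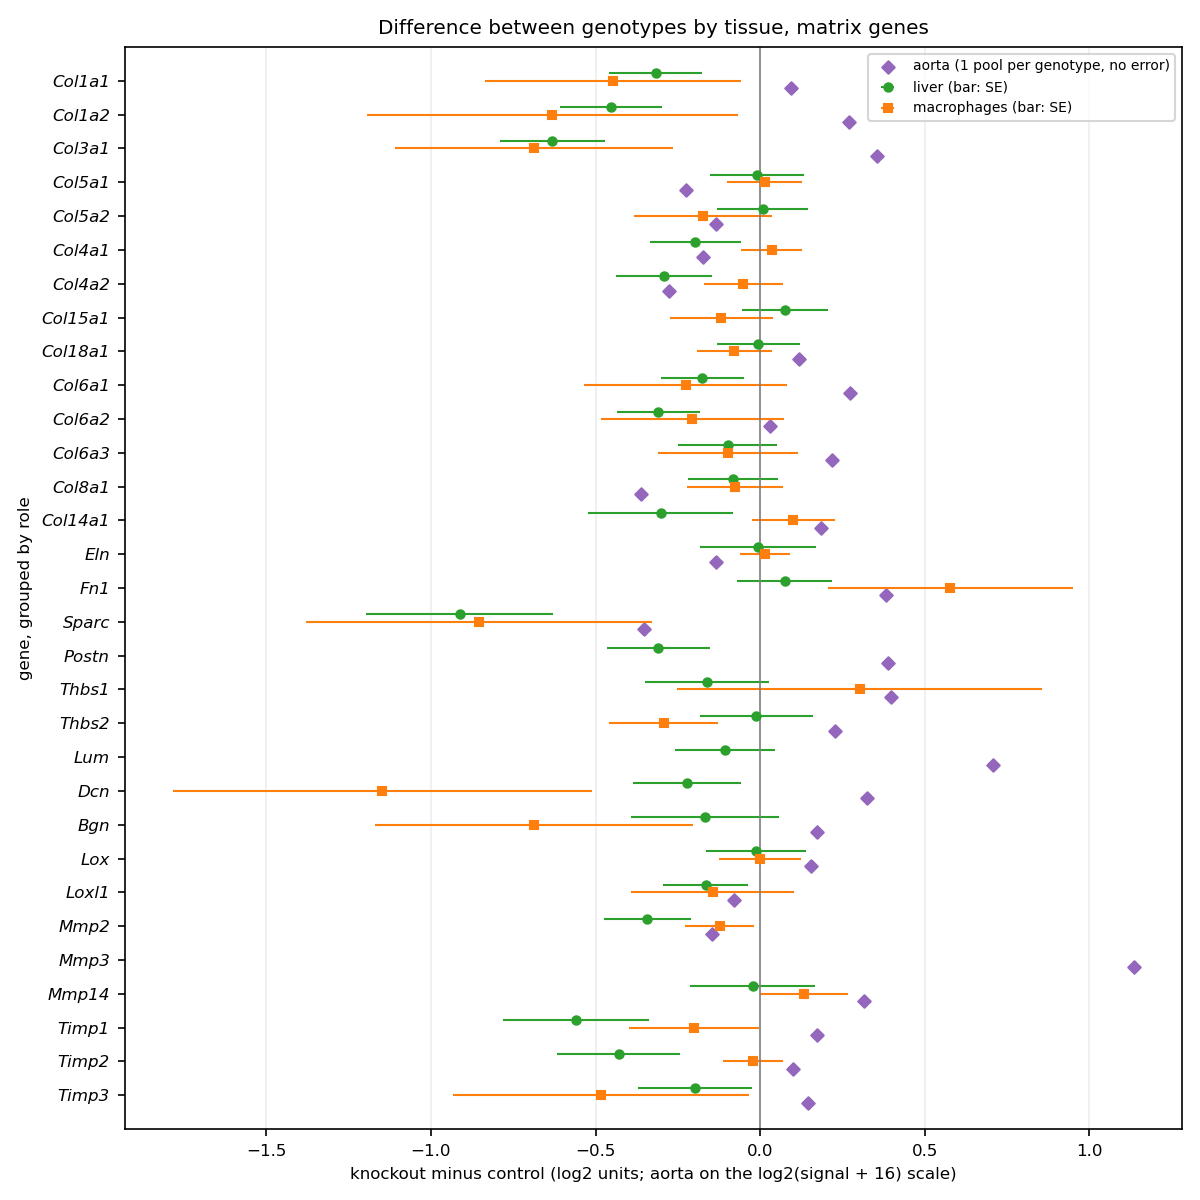
Difference between genotypes for each matrix gene in liver, macrophages and aorta: the horizontal axis gives knockout minus control in log2 units, with bars of 1 standard error for liver and macrophages and no error for the single pools of aorta. Col3a1 lies at -0.63 in liver, -0.69 in macrophages and 0.35 in aorta, and Sparc lies below 0 in all 3.

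Whether the macrophage difference departed from the liver difference was tested for 29 members in 1 fit of all 10 arrays. By limma, 0 members were called (0% of 15548 genes) and 0 passed an unadjusted p under 0.05. The largest gaps were those of Dcn, -0.92 ± 0.83, and Bgn, -0.52 ± 0.66 (macrophage minus liver, adjusted p = 1 for each by limma). Sex, age and diet differ along with the tissue in this comparison, by the labels.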

How the data were processed

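RNA of liver, elicited peritoneal macrophages and aorta was measured on Affymetrix arrays. The submitters' processing notes name Affymetrix Expression Console, and no source used here gives its algorithm or version. The macrophage and liver files hold small positive numbers and were read as log2 values that the authors had normalized. The aorta files were read as linear intensity, already scaled by the authors, since both arrays had the same trimmed mean of 100.04.

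Only probe sets with 1 gene symbol in the platform annotation were used, and a gene with several was represented by the brightest (every aorta probe set of a member was also read). In liver and macrophages, genes with a mean under the filter (percentile 30 over all probe sets) were not tested; in aorta a gene was kept where its brighter pool reached the median. Differences, knockout minus control, were fitted per tissue with limma 3.58.1 (lmFit and eBayes) in R 4.3.3 without covariates, and p-values were adjusted by Benjamini-Hochberg over all genes. The fits were checked on simulated data. Aorta differences used a pseudocount of 16 and have no test. Lists are described by counts and medians. The members and the 20 further lists were chosen with earlier results of these data known. All members were open to naming, with up to 4 genes of each further list, those with the smallest p or, in aorta, the largest difference, and Prkch. Promoter windows came from RefSeq (GRCm38.p6), and motifs were matched on both strands. Alternatives (normalization, filter, probe set per gene, prior variance, blocks, arrays left out, pseudocount) are given in the closing section.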

Additional observations from a re-analysis of the deposited data

How the results depend on the processing

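The number of arrays, 2 per genotype in liver, 3 in macrophages and 1 pool in aorta, limits the precision, and signals near the filters are the least certain. The count of members called in liver was 0 to 1 when each array was left out in turn, with Sparc called without knockout replicate 2, and the median difference was -0.32 to -0.093. In macrophages the median difference reversed to 0.14 within batch 1, and no member was called under any alternative run; it was -0.26 to -0.03 with each array left out. Single genes that reversed were Timp3 in liver (-0.40 to 0.0053), Col14a1 in liver (-0.64 to 0.038) and Timp1 in macrophages (-0.34 to 0.013), each with 1 array left out. In aorta 0 members passed 2-fold with a pseudocount of 64, and the median difference was 0.17 with a pseudocount of 1, 0.13 with 64, 0.15 without the filter, 0.21 over the mean of a gene's probe sets and 0.15 over every probe set. With the replicate number as a block, 0 members were called in liver (23 genes over all, against 1) and 0 in macrophages, so the block changed no member's call. With it Mmp12 and Cd68 were called in liver (limma, adjusted p = 0.0154 and 0.0392, against 0.658 and 0.712 without). In macrophages the block put 6 of 28 members at an unadjusted p under 0.05 (Dcn, Col3a1, Fn1, Sparc, Thbs2 and Bgn, where 1.34% of all genes passed), with a smallest adjusted p of 0.950 by limma. Dcn differed by -0.68, -1.39 and -1.37 between knockout and control replicate 1, 2 and 3, which share the age of the mice at each number by the labels. The arrays numbered 1 and those numbered 3 also share a batch, but those numbered 2 lie in different batches. With the batch as the block instead, 0 members passed an unadjusted p under 0.05 by limma (1.36% of all genes). Dcn then differed by 0.11 within batch 1 and -1.96 within batch 2. Same-numbered arrays correlated at 0.40, 0.03 and 0.50 in macrophages, and differently numbered arrays at -0.46 to 0.19. In liver the values were 0.11 and -0.11, which can differ only in sign with 2 arrays per genotype. The main fits did not take the numbers to pair the arrays, and these correlations do not settle whether they were paired. Members whose difference exceeded its standard error were followed under each alternative that covers all their tissue's arrays or leaves 1 out. The 3 reversals given above (2 in liver, 1 in macrophages) were the changes of direction, each with 1 array left out. The totals of 191 values in liver and 164 in macrophages hold many that could not change. The filter, the probe set choice, the prior variance, the replicate block and the joint fit left each of these members' differences as it was. Of 11 such members in macrophages, 7 had the opposite direction within batch 1 (Col1a1, Col1a2, Col3a1, Sparc, Dcn, Bgn and Timp3) and 1 within batch 2 (Timp1). With adjusted p near 1, the side of the threshold says nothing about stability. The cause of these changes was not tested.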
